A study of Mus musculus with 12 samples.

Results

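The 36 genes described here encode the glucose transporters, the enzymes of glycolysis, lactate dehydrogenase, the lactate transporters with their chaperone basigin, and a few side enzymes of sugar phosphate metabolism. They were chosen by gene symbol, and 35 of them had a level among the 15838 genes of the tables, whereas *Pfkfb1* was not listed. The RNA came from Descemet membranes with their corneal endothelial cells (CEC), peeled from corneas of C57BL/6 mice aged 10 weeks. There were 4 groups with 3 libraries each: male *Slc4a11*-/- (male KO), female *Slc4a11*-/- (female KO), male *Slc4a11*+/+ (male WT) and female *Slc4a11*+/+ (female WT). The KO mice carry a germline deletion of several exons of *Slc4a11*, a transporter gene whose loss gives a mouse model of congenital hereditary endothelial dystrophy, and KO and WT mice were littermates from heterozygous parents. The labels describe pooled membranes and the study's methods describe pairs of membranes, so how many animals stand behind a library cannot be told apart here.

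The value used for each gene is the authors' mean level over all 12 libraries, on the log2 CPM scale, where CPM is the share of a library's counts that a gene takes, scaled to one common total. It averages KO and WT, male and female together. It therefore gives no difference between genotypes or sexes, it comes without an error or a number of reads, and the depth of each library is unknown. For the same reason the deleted gene could not be followed library by library. *Slc4a11* had a mean level of 10.71 log2 CPM over KO and WT libraries together. A value in CPM below is 2 raised to the mean log2 level. Because a longer transcript gives more fragments, folds between genes are given per kb, that is per 1000 bases of the union of a gene's exons unless another length is named. Ranks, medians and counts in CPM are not scaled for length.

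In glycolysis a cell splits glucose to pyruvate and gains ATP without oxygen, and lactate dehydrogenase turns pyruvate to lactate while it regenerates the NAD+ that the pathway needs. Lactate leaves the cell with a proton through the monocarboxylate transporters MCT1 (*Slc16a1*) and MCT4 (*Slc16a3*), which need the glycoprotein basigin (*Bsg*) to reach the plasma membrane. The corneal endothelium is a single layer of cells on the Descemet membrane that keeps the stroma clear by pumping fluid out of it. It takes up glucose from the aqueous humor, and lactate flux is one of the known components of this pump.

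The glycolytic families are made of paralogs with similar coding sequences, and for 3 families the 30 coding bases most alike in a pair are printed to show how close the paralogs that carry the results are. Capitals mark the bases that differ, and positions count from the first base of the start codon of the transcript with the longest reading frame in GENCODE M21. The genes are *Aldoa* on chromosome 7 (126795234 to 126800751, minus strand) and *Aldoc* on chromosome 11 (78322968 to 78327781, plus strand), *Pgam1* on chromosome 19 (41911923 to 41918660, plus strand) and *Pgam2* on chromosome 11 (5801640 to 5803733, minus strand), and *Ldha* on chromosome 7 (46841475 to 46855627, plus strand) and *Ldhb* on chromosome 6 (142490249 to 142507957, minus strand), all in GRCm38.
Aldoa, coding bases 241 to 270: ggcaagggcatCctggctgcagatgagtcc
Aldoc, coding bases 79 to 108: ggcaagggcatTctggctgcagatgagtcc
Pgam1, coding bases 608 to 637: aggccatcatggagctgaacctgcccacGg
Pgam2, coding bases 608 to 637: aggccatcatggagctgaacctgcccacTg
Ldha, coding bases 385 to 414: cagcaAgagggggagagCcggctcaacctg
Ldhb, coding bases 301 to 330: cagcaGgagggggagagTcggctcaacctg
Over the whole coding sequence the pairs were less alike. Identity in a global alignment was 65.8% for *Aldoa* and *Aldoc*, 74.4% for *Pgam1* and *Pgam2*, and 65.5% for *Ldha* and *Ldhb*. Gap positions count as differences in these values, so unequal lengths lower them. The coding lengths were 1254 and 1089 bases for the aldolases, 762 and 759 for the mutases, and 1083 and 1002 for the dehydrogenases. The 3 identities therefore do not rank the pairs by likeness. The longest run of identical bases was 26, 28 and 18 bases in these pairs, shorter than a 50-base read. Among the pairs of family members within the list it did not reach 50 bases, and the longest, 36 bases, was between *Pfkfb2* and *Pfkfb4*. Copies outside the list were not aligned. Of the 50-base windows of *Eno1*, 70.5% recur in its copy *Eno1b*, and of those of *Aldoa*, 6.27% recur in *Aldoart1*.

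The defining genes of corneal endothelium were all listed and high, from 9.15 log2 CPM for *Cdh2* to 12.79 for *Col8a2*, the Descemet membrane collagen. Markers of other cells were listed too. The 3 stromal markers lay between 8.42 (*Kera*) and 11.89 (*Dcn*), and the 4 epithelial ones between 2.18 (*Krt14*) and 10.06 (*Aldh3a1*), with the corneal keratin *Krt12* at 2.60. All 5 iris pigment markers were listed, up to 3.26, 2 of 3 leukocyte markers up to 1.34, both lens markers up to 0.88 and both vessel markers up to 0.92, and neither red blood cell marker was listed. Their part in the levels below was not tested, and in these bulk libraries fewer cells of a type and less RNA per cell cannot be told apart.

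Most of the 35 genes lay above the median gene of these libraries. The 32 other pathway genes, of which 14 were not listed, are not in these counts. The median of the 35 genes was 5.39 log2 CPM (41.9 CPM), beside 3.76 (13.5 CPM) over all genes, and 27 of the 35 lay above the latter. On the scale per kb the medians were 3.34 and 1.79. At or above 10 CPM there were 27 of the genes (77.1%), beside 55.6% of all genes, and at or above 100 CPM there were 13 (37.1%), beside 10.8% of all genes. *Bsg* and *Pkm* passed 1000 CPM, as did 0.562% of all genes. One gene of the list, *Pgam2*, fell below 1 CPM. The 35 genes summed to 12803 CPM, or 1.31% of the sum over all genes, and *Bsg* alone made up 62.5% of that sum.

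**Figure D1:**
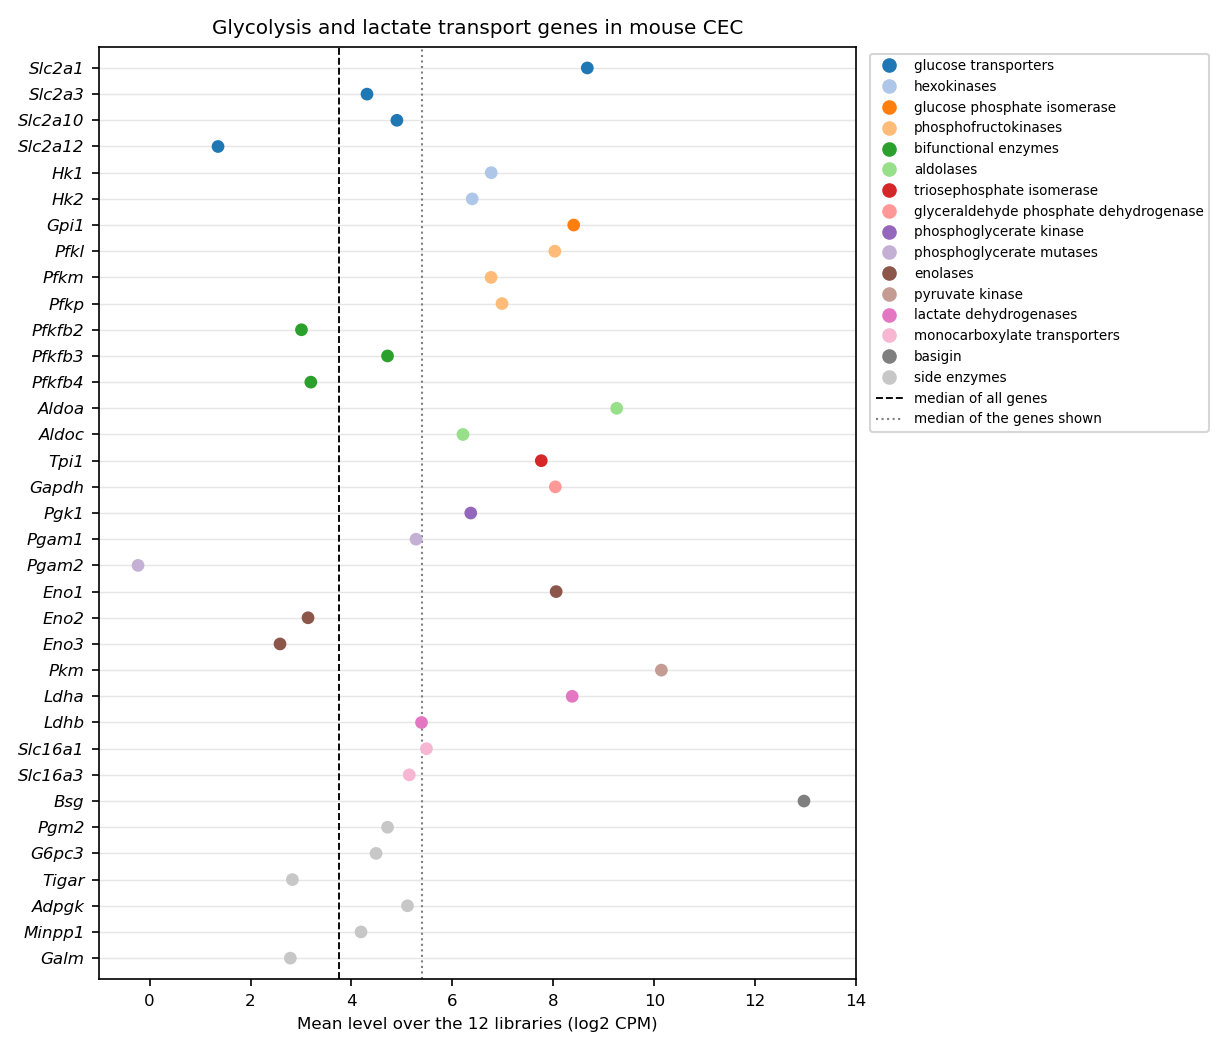
Mean level of the 35 glycolysis and lactate transport genes over the 12 libraries (x axis, log2 CPM, not scaled for length; 1 point per gene, no error available), ordered along the pathway and coloured by family. The dashed line is the median of all genes (3.76) and the dotted line that of the genes shown (5.39); *Bsg* lies farthest right at 12.97 and *Pgam2* farthest left at -0.23.

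Among the glucose transporters one transcript predominated. *Slc2a1* encodes GLUT1, the transporter of basal glucose uptake in many barrier tissues, and had a level of 8.67 log2 CPM (408 CPM). *Slc2a10* (GLUT10) had 4.90, *Slc2a3* (GLUT3, the high-affinity transporter typical of neurons) 4.31, and *Slc2a12* (GLUT12) 1.36. Per kb, *Slc2a1* was 13.9-fold above *Slc2a10* and 42.6-fold above *Slc2a3* (20.6-fold with the coding length), and it made up 90.9% of the summed level of the 4 transporters. Of the *Slc2a12* transcript, 8.69% of 50-base windows lie opposite exons of *Tbpl1* (2.94 log2 CPM). From the preset list of other pathway genes, the transporters *Slc2a2* and *Slc2a5* were not listed, and *Slc2a4*, the insulin-regulated GLUT4, had -0.05. Other transporters of that list had 3.58 (*Slc2a13*), 3.43 (*Slc2a8*), 2.44 (*Slc2a9*) and 0.25 (*Slc2a6*). Per kb *Slc2a8* had 1.74, beside 1.45 for *Slc2a3*. The share of 90.9% does not count the genes of that list.

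The hexokinases, which trap glucose as glucose 6-phosphate, were present as 2 transcripts at similar levels. *Hk1*, the housekeeping form, had 6.77 log2 CPM (109 CPM) and *Hk2*, the form known for induction by insulin and hypoxia, had 6.39 (84.0 CPM). Their order depended on the length used. Per kb of exon union *Hk2* was 1.10-fold above *Hk1*, whereas *Hk1* was 1.67-fold above *Hk2* per kb of the longest transcript and 1.26-fold above it per kb of coding sequence. Without an error for either level the 2 cannot be ordered. *Hk3* and *Hkdc1* were not listed.

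*Gpi1*, the isomerase that makes fructose 6-phosphate, had 8.40 log2 CPM (339 CPM). Of its 50-base windows 25.3%, and of its coding windows 40.9%, recur in other annotated transcripts. The pseudogene Gm1840, which was not listed, holds 18.6% of its windows. Windows were shared with 122 genes, of which 96 were listed, each with 0.494% of the windows or less. Phosphofructokinase, the committed step, is a tetramer of subunits encoded by 3 genes, and all 3 exceeded 100 CPM. The liver-type subunit *Pfkl* had 8.03 log2 CPM, the platelet-type *Pfkp* 6.98 and the muscle-type *Pfkm* 6.77. Per kb *Pfkl* made up 48.2% of the summed level and was 1.20-fold above *Pfkm* and 4.15-fold above *Pfkp*. With coding length, *Pfkl* was 2.40-fold above *Pfkm* and 2.08-fold above *Pfkp*, and *Pfkp* then lay above *Pfkm*. Without an error the small difference of *Pfkl* from *Pfkm* per kb gives no order.

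The bifunctional enzymes make and remove fructose 2,6-bisphosphate, an activator of phosphofructokinase, and were at low to middle levels. *Pfkfb3*, the isoform with the strongest kinase activity, had 4.71 log2 CPM (26.3 CPM), *Pfkfb4* 3.19 and *Pfkfb2* 3.01. Per kb *Pfkfb3* was 1.85-fold above *Pfkfb4* and 3.13-fold above *Pfkfb2*. Of the *Pfkfb2* transcript, 63.5% of 50-base windows also lie in Gm29427, an overlapping gene on the same strand, which was not listed in the tables.

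The aldolases, which split fructose 1,6-bisphosphate, were with pyruvate kinase among the highest steps of the pathway per kb. *Aldoa* had 9.26 log2 CPM (611 CPM) and *Aldoc*, the brain-type form, 6.21 (74.0 CPM). Per kb *Aldoa* was 9.26-fold above *Aldoc* (14.9-fold with the longest transcript) and made up 90.3% of the sum, while *Aldoc* itself had 4.50 log2 CPM per kb, beside the median of 1.79 over all genes. The nerve marker *Snap25* was not listed.

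The enzymes of the 3-carbon sugars followed at 7.76 log2 CPM for *Tpi1* (217 CPM), the triosephosphate isomerase, 8.04 for *Gapdh* (263 CPM), which makes the NADH of the pathway, and 6.36 for *Pgk1* (82.3 CPM), the first enzyme to return ATP. *Gapdh* and *Pgk1* are uncertain because of copies. Of the 50-base windows of *Gapdh*, 90.4% occur in other annotated transcripts, from 222 genes of which 213 are pseudogenes, and 14 of the 222 were listed in the tables. For *Pgk1* the share was 68.0%, and 100% of its coding windows occur in the pseudogene Pgk1-rs7, which had -1.05 log2 CPM, or in related copies. How the authors counted fragments that map to several places is not given in the sources used here, and its part in these levels was not tested. The testis form *Pgk2* was not listed, and *Gapdhs* had 0.39.

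Phosphoglycerate mutase and enolase each had one leading form. *Pgam1* had 5.28 log2 CPM (38.8 CPM) and the muscle form *Pgam2* -0.23 (0.853 CPM), so that *Pgam1* was 19.3-fold above *Pgam2* per kb of exon union and 45.4-fold above it per kb of coding sequence. *Eno1* had 8.06 (266 CPM), the neuronal *Eno2* 3.14 (8.81 CPM) and the muscle form *Eno3* 2.58. Per kb *Eno1* was 14.3-fold above *Eno3* and 26.4-fold above *Eno2*, and made up 90.3% of the family. With the longest transcript *Eno1* was 34.2-fold above *Eno3* and 41.7-fold above *Eno2*. With the coding length the folds were 44.4 and 30.2, so that *Eno2* then lay above *Eno3*. Of the 6 muscle markers, *Des*, *Ckm*, *Myl1* and *Tnnc2* were not listed, whereas *Myh11* and *Acta2* had 7.69 and 5.64. All coding windows of *Pgam1* (100%) recur in pseudogenes, mainly Pgam1-ps2, which was not listed, and Pgam1-ps1 had -0.77. Of *Eno1*, 72.2% of windows recur elsewhere, and 70.5% in *Eno1b*, an intact copy listed at 3.90 log2 CPM.

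*Pkm*, the pyruvate kinase of most tissues, had 10.14 log2 CPM (1129 CPM, rank 73 of 15838). The tables give 1 value for the gene, so its M1 and M2 splice forms are not separated. The liver and red cell form *Pklr* was not listed. Per kb *Pkm* was 3.55-fold above *Gapdh*, 11.5-fold above *Pgam1* and 17.7-fold above *Hk1*. With the longest transcript it was 5.80-fold above *Gapdh* and 21.2-fold above *Pgam1*, and with the coding length 2.90-fold above *Gapdh*. Of its windows 34.4% recur in other transcripts, and the pseudogene Gm6560, which had 0.52 log2 CPM, holds 25.9% of its windows. Among coding windows alone the share was 52.9% for *Pkm*, beside 94.2% for *Gapdh* and 100% for *Pgam1*. The part of this in the folds above was not tested. The transcript of unknown coding status Gm49759 shares 767 exonic bases with *Pkm* on the same strand and had 3.86.

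Lactate dehydrogenase is a tetramer of A and B subunits, of which the A subunit is the one abundant in tissues that export lactate. *Ldha* had 8.37 log2 CPM (332 CPM) and *Ldhb* 5.39 (41.9 CPM). Per kb *Ldha* was 3.76-fold above *Ldhb* and made up 79.0% of the sum, and the fold was 5.69 with the longest transcript and 7.33 with the coding length. The 30-base stretches printed above show where the 2 coding sequences come closest. Pseudogene copies take in 16.6% of the windows of *Ldha* and 27.0% of those of *Ldhb*, and none of the genes that share them was listed. The testis form *Ldhc* was not listed, and *Ldhd*, a mitochondrial enzyme of D-lactate, had 3.52.

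In lactate export the chaperone and the transporters lay far apart. *Bsg* on chromosome 10 (79704491 to 79711969, plus strand, GRCm38) had 12.97 log2 CPM (8005 CPM), rank 6 of 15838 genes and rank 3 per kb. *Slc16a1* had 5.49 (44.8 CPM) and *Slc16a3* 5.14 (35.4 CPM). Per kb *Slc16a1* was 1.52-fold above *Slc16a3*, and 1.24-fold with the longest transcript. *Bsg* was 436-fold above *Slc16a1* and 663-fold above *Slc16a3* per kb of exon, and 226-fold and 273-fold above them per kb of coding sequence. None of the 50-base windows of these 3 transcripts recurs in another annotated transcript. Embigin (*Emb*), the other known chaperone of these transporters, had 1.89, *Slc16a7* (MCT2) was not listed, and *Slc16a8* (MCT3) had -0.05.

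**Figure D2:**
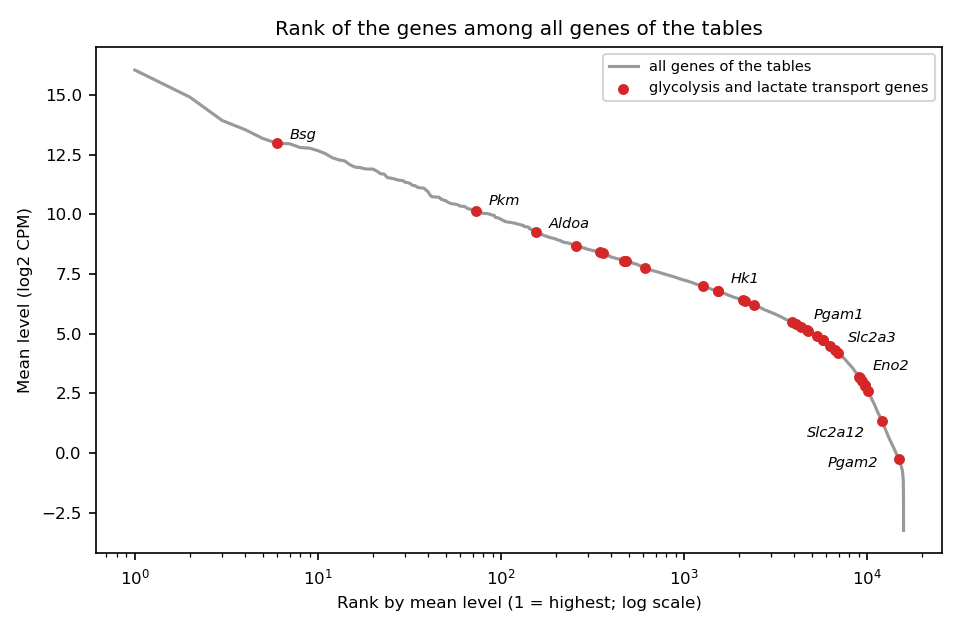
Mean level (y axis, log2 CPM) against rank (x axis, log scale, rank 1 the highest) for all 15838 genes (grey line) and the 35 glycolysis and lactate transport genes (red points, some named). *Bsg* stands at rank 6, *Pkm* at 73 and *Aldoa* at 156, while *Slc2a12* and *Pgam2* lie at ranks 12014 and 14862.

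The side enzymes lay in the middle of all genes. *Adpgk*, an ADP-dependent kinase of glucose, had 5.11 log2 CPM (34.5 CPM). *Pgm2*, which works on sugar phosphates next to *Pgm1* (6.78), had 4.71. *G6pc3*, the ubiquitous glucose 6-phosphatase, had 4.49, and *Minpp1*, a phosphatase that also acts on a glycerate phosphate, 4.19. *Tigar*, which removes fructose 2,6-bisphosphate, had 2.83 and the aldose mutarotase *Galm* 2.79. Of *Minpp1*, 29.1% of windows recur in other annotated transcripts.

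Of the 32 other pathway genes, 18 were listed. *Hif1a*, the hypoxia-inducible transcription factor subunit known to drive many glycolytic genes, had 10.63 log2 CPM and rank 47. *Pdha1*, the pyruvate dehydrogenase subunit that commits pyruvate to oxidation, had 6.53, and the mitochondrial pyruvate carrier subunits *Mpc1* and *Mpc2* had 4.36 and 5.10. *Bpgm* had 6.53 and *G6pdx*, the entry enzyme of the pentose phosphate pathway, 4.61. The fructose 1,6-bisphosphatase *Fbp1* and the glucose 6-phosphatase *G6pc* of liver gluconeogenesis were not listed, and *Fbp2* had 1.14. *Pgm2l1* had 3.05, and the other listed genes of this list are given above.

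For each step from glucose entry to lactate export, the levels per kb of its genes among the 35 were summed. Copies and other pathway genes, such as *Eno1b*, *Slc2a8*, *Slc2a13* and *Slc16a8*, are not in these sums. The 13 steps spanned 3.79 log2 units, or 13.9-fold. The highest were aldolase at 7.86 log2 CPM per kb and pyruvate kinase at 7.82, which give no order without an error. Glucose transport came next, just above lactate dehydrogenase (6.99). The lowest were the monocarboxylate transporters at 4.07, phosphoglycerate mutase at 4.37 and hexokinase at 4.75. Phosphofructokinase (6.34), triosephosphate isomerase (6.30), *Gapdh* (5.99), enolase (5.78), *Gpi1* (5.71) and *Pgk1* (5.20) lay between them. With the longest transcript pyruvate kinase came first (8.86, beside 8.72 for aldolase). With the coding length pyruvate kinase came first and phosphoglycerate mutase last. Under each of the 3 lengths, aldolase and pyruvate kinase were the 2 highest steps. All coding windows of *Pgam1* recur in pseudogenes, and the part of this in the low place of its step was not tested. These sums describe RNA and give nothing about enzyme activity or flux.

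**Figure D3:**
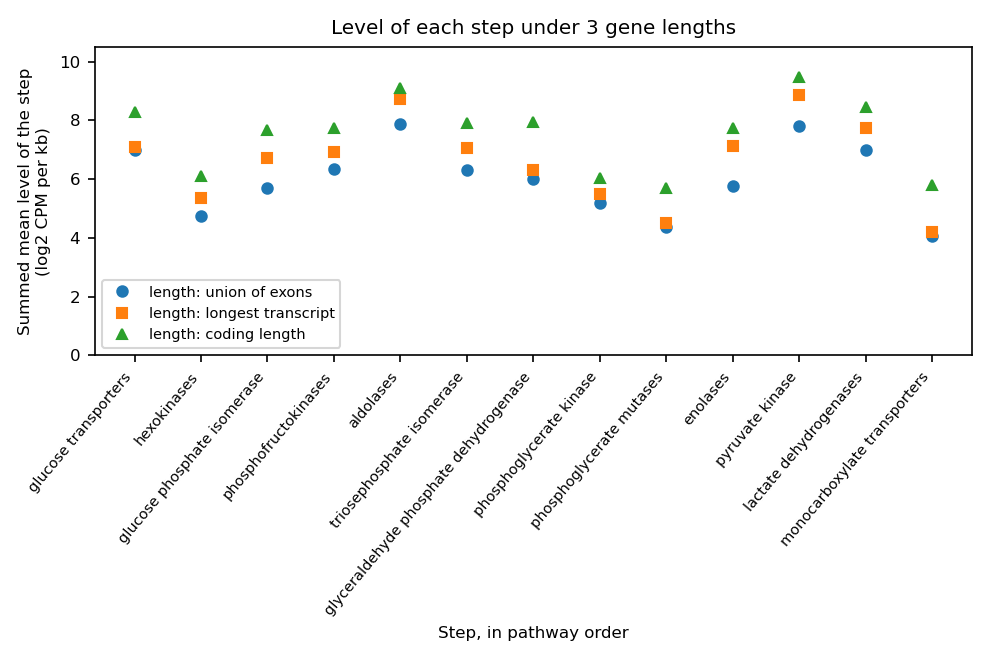
Summed mean level of each of 13 steps in pathway order (x axis) in log2 CPM per kb (y axis), with the length taken as the union of exons (circles), the longest transcript (squares) or the coding length (triangles). Aldolase and pyruvate kinase are the 2 highest steps under each length, and the span is 13.9-fold for the union of exons and 25.4-fold for the longest transcript.

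The identity of reads sets a limit to these levels, since several glycolytic genes have many retrocopies. For each gene, every 50-base window of its transcript with the longest reading frame was searched in all other annotated transcripts on both strands. Exons of a gene outside that transcript were not searched, although its level can include them. In 16 of the 35 genes no window recurred, among them *Bsg*, *Slc16a1*, *Slc16a3*, *Hk1*, *Hk2*, *Aldoc* and *Slc2a3*, and 19 had under 1%. In 12 genes at least 10% did, and in 4 at least 50% (*Gapdh*, *Eno1*, *Pgk1* and *Pfkfb2*). Shares of *Gpi1* (25.3%), *Pfkp* (17.1%) and *Aldoa* (13.5%) lay between. Over all annotated exons, some of the 16 genes without a recurring window do overlap another gene. *Pfkm* shares 341 exonic bases with Gm26513 on the same strand. On the opposite strand *Hk1* shares 157 with Hk1os, and *Adpgk* shares 194 with *Bbs4* (3.83 log2 CPM). For *Pfkp* the shared sequence is exonic overlap with *Pitrm1* on the opposite strand, which had 5.48 log2 CPM. The library kit keeps the strand, but the strand setting of the counting is not given in the sources used here.

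**Figure D4:**
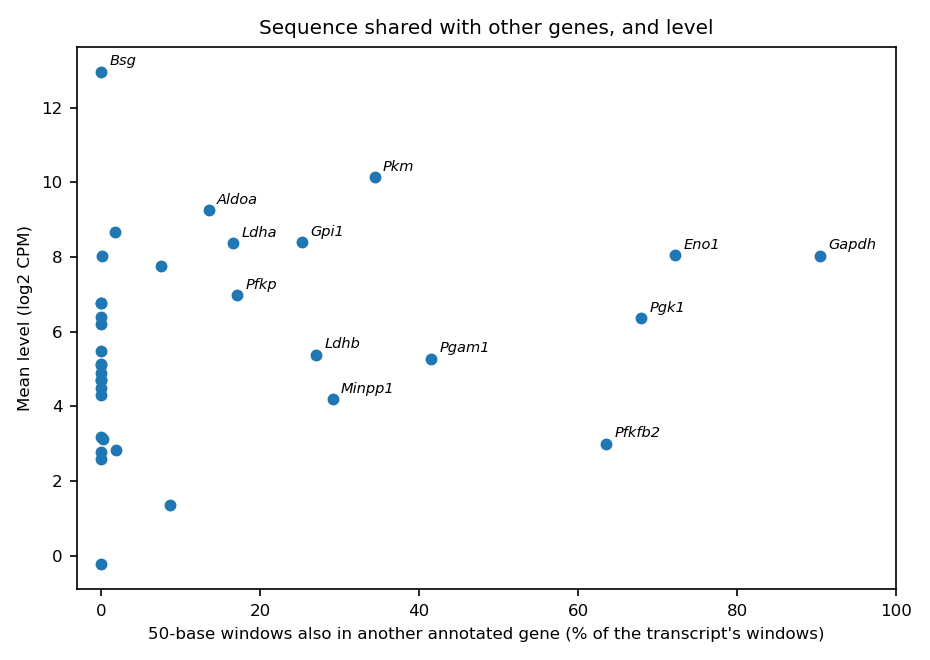
Share of the 50-base windows of each transcript that also occur in another annotated gene (x axis, %) against the mean level of the gene (y axis, log2 CPM), 1 point per gene for 35 genes. *Gapdh* (90.4%), *Eno1* (72.2%), *Pgk1* (68.0%) and *Pfkfb2* (63.5%) lie to the right, whereas *Bsg*, the highest gene of the list, has none.

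Promoter sequence was examined because the core ACGTG of the hypoxia response element, which is also contained in the E-box CACGTG, is known from glycolytic promoters. RefSeq windows in GRCm38.p6, from 250 bases before to 50 bases after the start, were matched for 32 of the 35 genes. A gene with several windows entered with only the first one in the reference. *Bsg*, *Galm* and *Slc2a3* had no entry. ACGTG was found on either strand in 16 of the 32 windows (50%). The share was 25.5% for the 10436 genes in the tables that had a window, and 19.7% for all 27025 genes with one. CACGTG was found in 5 (15.6%, beside 10.1% of the genes in the tables). The GC box GGGCGG was found in 20 (62.5%, beside 64.5%) and TATAAA in 2 (6.25%, beside 6.97%), and the median GC content was 60.2%, beside 61%. A match is a description of letters and was not tested as a binding site. The 5 matches on the forward strand that lie at least 100 bases before the start and outside annotated exons are printed with 12 bases on either side, with the motif in capitals.
Pfkm, chr15:98092442-98092470, plus strand: attaagtatgccACGTGaagtaagtaatt
Pgk1, chrX:106186938-106186966, plus strand: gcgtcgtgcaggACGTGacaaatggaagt
Pgam1, chr19:41911745-41911773, plus strand: cgctccttgcttACGTGcgctccgtgact
Ldha, chr7:46845648-46845676, plus strand: gtgtcgcagcacACGTGgagccactcttg
Slc16a1, chr3:104638453-104638481, plus strand: cggcgccgggtcACGTGgcgggaaggggg
Relative to the RefSeq start, the motif began at position -135 in *Pfkm*, -150 in *Pgk1*, -114 in *Pgam1*, -144 in *Ldha* and -199 in *Slc16a1*. The RefSeq start of *Ldha* lies inside the gene as GENCODE M21 annotates it. The mean levels of these 5 genes ran from 5.28 log2 CPM for *Pgam1* to 8.37 for *Ldha*, and the data hold no measurement of binding at these sites.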

How the data were processed

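Total RNA of CEC with Descemet membrane had been sequenced in 50-base read pairs with a stranded low-input kit. The authors used HISAT2 on GRCm38 (mm10), TMM-normalized CPM and voom in limma. Tool versions, the counter and its treatment of fragments with several matches are not given in the sources used here. In the 3 tables the authors deposited, each gene has a mean level in log2 CPM over all 12 libraries, equal in the 3 tables, after the authors' own filter. That column was the only measurement used. The other 5 columns of each table hold the authors' comparisons (log2 fold change, moderated t, p-value, adjusted p-value and log odds) and were not used, so KO and WT, or male and female, were not compared. The standard errors and tests that those columns hold were therefore left unused. The mean level itself has no error, depth or interval, and there were 0 columns of values per library.

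The members and the lists of families, other pathway genes and cell type markers were chosen with earlier results of these data known. All members are named, with genes of the other lists and copies whose symbol extends a member's; a few genes of those lists are not reported here. Lengths and positions come from GENCODE M21, which held 15824 of the 15838 genes. Coding sequences of paralogs were aligned globally with Biopython 1.88 (match 2, mismatch -1, gap opening -5, extension -0.5). Coding sequences replaced the planned protein sequences, which were not used here. The alignment was tested on simulated sequences of equal length that differed only by substitutions. A window search was tested on simulated sequences too, but the window shares given here were counted by a separate routine that was not tested. Promoters come from RefSeq, matched by gene ID. Alternatives were other tables, filters, a log2(CPM + 1) scale, other lengths and other promoter windows, and 2 were added after seeing the data. Python 3.11.15, pandas 2.3.3 and numpy 2.4.6 were used.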

Additional observations from a re-analysis of the deposited data

How the results depend on the processing

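Of the 35 genes, 13 lay among the highest 10% of all genes by level. The count was 13 with the level taken from either other table and 11 with only protein-coding genes or only genes of at least 1 CPM. Restricted to the 23 genes with under 10% of windows shared, an alternative chosen after seeing the data, it was 6 (26.1%). Of the 12 genes so left out, 7 lay among the highest 10%. The median level of 5.39 was 5.42 on the log2(CPM + 1) scale, 5.44 over genes of at least 1 CPM and 3.34 per kb, beside medians of all genes of 3.86, 4.09 and 1.79. The paralog with the highest value was the same in 8 of 9 families with the longest transcript, the coding length or no length scaling. The exception was hexokinase, where *Hk2* minus *Hk1* was 0.14 per kb of exon union, -0.74 with the longest transcript, -0.33 with the coding length and -0.38 with no length scaling. The span of the steps was 3.79 log2 units, 4.67 with the longest transcript and 3.77 with the coding length. ACGTG lay in 16 promoters, in 13 before the start only (40.6%, beside 21.7% of genes in the tables) and in 19 when any window of a gene counted (59.4%, beside 28.9%). No paired analysis was possible because the tables give 1 mean over all libraries, and leaving out a library was not possible for the same reason.

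The values carry no error, so the small differences between paralogs (*Hk1* and *Hk2*, *Pfkl* and *Pfkm*, *Slc16a1* and *Slc16a3*) give no order, although *Pfkl* and *Slc16a1* had the higher value under each length. Low genes such as *Pgam2* come from an unknown number of reads.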
